A study of Homo sapiens with 18 samples.

Results

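The cytosolic ribosomal protein genes are the genes whose products, together with ribosomal RNA, form the large and small subunits of the ribosome outside mitochondria. They were picked by name from the tables of the series. The symbols were RPL or RPS and a number, with an optional A, X or L at the end. Added to these were RPLP0, RPLP1, RPLP2, RPSA and RPL10A, and the paralogs RPL36AL, RPL22L1, RPL26L1, RPL39L and RPS27L. The rule gave 83 genes among 19401 genes listed in at least 1 of the 3 tables, of which 52 encode large-subunit proteins or their paralogs and 31 encode small-subunit proteins or their paralogs. The rule used no values, though it was set with earlier results of these data known.

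The series measured mRNA by sequencing in MCF10A, an immortalized, non-tumorigenic human mammary epithelial cell line, grown in DMEM/F12 with horse serum, insulin, EGF, hydrocortisone and cholera toxin and given no further treatment. CBFB, the partner subunit that stabilizes RUNX proteins on DNA, was knocked out with CRISPR-Cas9 (CBFB KO, 3 libraries). The labels do not say how many lines these libraries came from. They were compared with wild-type cells (WT, 3 libraries) of their own experiment. RUNX1, a DNA-binding transcription factor, was knocked out in 2 lines (KO1 and KO2, 4 libraries each), both compared with the same 4 WT libraries of a separate experiment. Of the data on the 18 libraries, 3 tables were analysed, called here the CBFB, KO1 and KO2 tables. Each knockout line grew from a single cell, so clone and gene cannot be told apart within a line.

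Ribosomal protein genes belong to the most transcribed genes of a growing cell, and their short mRNAs share a run of pyrimidines at the 5′ end, the TOP motif, through which the mTOR pathway and the protein LARP1 set how many ribosomes translate them. Each protein enters the ribosome as a single copy, except for the acidic stalk proteins, and surplus protein is degraded. A few genes have paralogs that are most abundant in testis or muscle or that respond to stress, and mutations in several of the genes cause Diamond-Blackfan anaemia.

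The value used for each gene was the authors' mean normalized count over all libraries of a table, knockout and WT together: 6 libraries in the CBFB table and 8 each in the KO1 and KO2 tables. From these means knockout and WT could not be separated for any gene, the loss of CBFB or RUNX1 in the lines could not be checked, and no value has an SD or a test. What could be described is which members each table lists, how abundant they were, and how the means differed between tables. The KO1 and KO2 tables share their 4 WT libraries, whereas the CBFB and KO1 tables come from different experiments, so that gene, clone and experiment cannot be told apart between them. In these bulk libraries, fewer cells with a transcript and less of it per cell cannot be told apart. The means summed to 20214423, 18050386 and 16467400 (CBFB, KO1 and KO2 tables). All 9 epithelial markers checked had means above 100 wherever listed, with KRT14 absent from the KO2 table, and epithelial keratins were abundant (KRT5, a basal keratin, had means of 87894, 101688 and 95221). Of 4 fibroblast markers, PDGFRA (466 to 633) and COL1A1 (236 to 305) were also above 100, while the leukocyte marker PTPRC had a mean of 0.46 in the CBFB table and the endothelial marker CDH5 stayed at 0.47 or less.

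The start sites of the members are shown first because they carry the sequence feature that the family is known for. RefSeq sequence (GRCh38.p14) around the annotated start was found for 67 of the 83 members. Members with no entry in the table used included RPL23, RPL23A, RPL30, RPL37, RPL39L, RPL3L, RPL5, RPL7, RPL8, RPS15A, RPS2 and RPS20. A run was defined as a C followed by at least 4 pyrimidines, on the strand of the gene, with the C lying within 5 bases of an annotated start. Such a run was present in 55 of 67 members (82.1%) and in 25.2% of all 27305 genes in the same table. The windows below run from 10 bases before the start to 20 bases from it, with the pyrimidine run in capitals where the definition found it. They were chosen for abundant members and for the paralog pairs described further on, with 1 of the 2 annotated starts of RPL26L1 shown. Coordinates are on GRCh38.p14, not on the hg19 build of the deposited tables.
RPLP0, chr12:120201092-120201121, minus strand: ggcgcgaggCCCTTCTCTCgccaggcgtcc
RPL3, chr22:39319604-39319633, minus strand: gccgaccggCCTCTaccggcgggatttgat
RPL41, chr12:56116623-56116652, plus strand: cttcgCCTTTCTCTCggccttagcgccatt
RPS24, chr10:78033853-78033882, plus strand: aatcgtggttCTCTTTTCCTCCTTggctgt
RPL22, chr1:6199576-6199605, minus strand: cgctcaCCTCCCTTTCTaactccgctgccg
RPL22L1, chr3:170870176-170870205, minus strand: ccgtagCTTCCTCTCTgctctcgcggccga
RPL26, chr17:8383174-8383203, minus strand: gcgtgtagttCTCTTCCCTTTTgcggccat
RPL26L1, chr5:172958719-172958748, plus strand: tccaggggtcggcgaacgaaacgcggagct
RPL36A, chrX:101391001-101391030, plus strand: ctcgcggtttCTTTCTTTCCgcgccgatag
RPL36AL, chr14:49620607-49620636, minus strand: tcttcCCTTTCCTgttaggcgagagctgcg
RPL39, chrX:119791611-119791640, minus strand: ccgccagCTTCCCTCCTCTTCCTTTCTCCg
RPS27, chr1:153990752-153990781, plus strand: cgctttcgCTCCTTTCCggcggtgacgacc
RPS27L, chr15:63157458-63157487, minus strand: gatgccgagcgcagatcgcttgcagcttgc

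The runs shown ranged from 5 bases in RPL3, whose product lies near the catalytic centre of the large subunit, to 22 bases in RPL39. The 12 members with no run by this definition were RPL6, RPL9, RPL15, RPL17, RPL27, RPS4X, RPS15, RPS26, RPS29 and the paralogs RPS27L, RPL26L1 and RPL10L. RPL22L1 and RPL36AL carried a run like their partner genes, so 2 of the 5 paralogs with sequence had it. A missing run says only that these letters are not in this window at the annotated start.

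The KO2 table left out much of the family. The CBFB and KO1 tables each listed 82 of the 83 members, all but RPL10L, a paralog known from testis. The KO2 table listed 46 and lacked 37, although the 37 had means between 3381 and 28754 in the CBFB table and between 3902 and 33694 in the KO1 table. Of 10531 genes whose CBFB and KO1 means both reached 100, 3.21% were absent from the KO2 table, against 37 of the 81 members that reached this mean (45.7%). The reverse was rare for genes of any kind. Of 10174 genes whose KO1 and KO2 means both reached 100, 0.128% were absent from the CBFB table. Of 10064 genes whose CBFB and KO2 means both did, 0 were absent from the KO1 table. Each set held 44 members, and none of them was missing from the third table. The absent members are left out of every value given below for the KO2 table.

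Short transcripts were the first thing to set beside this absence. Among other genes, the share absent from the KO2 table was 28.6% of 154 genes with a median annotated transcript below 600 bases, 24.9% of 309 genes between 600 and 800 bases, 12.5% of 423 genes between 800 and 1000 bases and 0.235% of 4248 genes of 3000 bases or more. Members in the same classes were absent in 13 of 18, 15 of 30 and 2 of 14 cases. Between 1000 and 1500 bases 5 of 14 members were absent beside 5.04% of 1151 other genes. By median annotated length, members were thus absent more often than other genes below 800 bases and from 1000 to 2000 bases. Their shares from 800 to 1000 bases were close. This length can far exceed the coding length, as in RPL32, absent (1734 and 405 bases), and RPL22, listed (1432 and 334.5 bases). How far the excess from 1000 to 2000 bases depended on this measure was not tested. The absent members had a median transcript length of 652 bases and a median coding length of 351 bases, against 828 and 564 bases for the 44 listed ones.

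**Figure D1:**
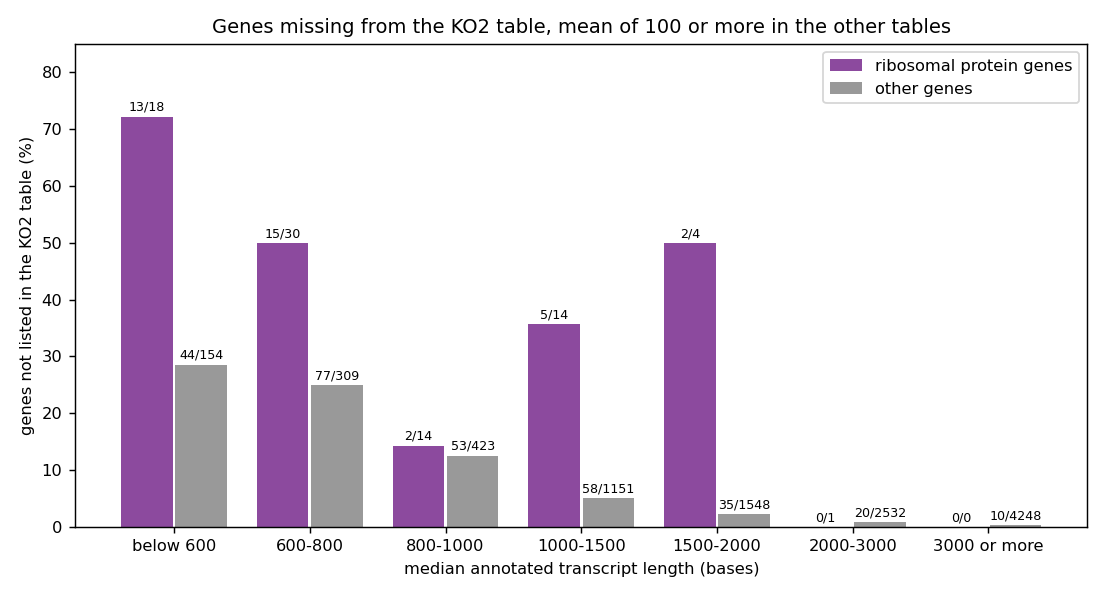
Share of genes not listed in the KO2 table (y axis, percent) by median annotated transcript length (x axis, bases), for genes whose CBFB and KO1 means both reached 100; purple bars are ribosomal protein genes, grey bars all other genes, and the fractions give absent over all genes. The purple bar is highest below 600 bases (13 of 18), and the grey bars decline from 28.6% to 0.235% with length.

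Base composition moved with absence too. Among other genes below 1000 bases, 1.52% of 198 genes with a transcript GC content under 45% were absent, beside 48.1% of 156 genes at 60% or more. Members below 1000 bases were absent in 5 of 12 cases under 45% and in 3 of 6 cases at 60% or more. In the classes between, members were absent in 7 of 18 cases (45 to 50%), 9 of 19 (50 to 55%) and 6 of 7 (55 to 60%). The shares among other short genes there were 8.09%, 18.1% and 27.5%. In each class under 60% the share among members was thus above that among other short genes. Whether length, GC content or another step led to the missing rows was not tested.

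Within the family the absence followed coding length. Among the 76 members other than the paralogs, 12 of the 13 with a coding length under 300 bases were absent and none of the 9 with 700 bases or more. The exception was RPL41, which encodes the smallest ribosomal protein (coding length 75 bases) and was listed with means of 23826, 29012 and 35769 (CBFB, KO1 and KO2 tables). Genes outside the family that were absent also had shorter coding lengths than listed ones (medians of 479 and 1317 bases). The absent members also had lower mean counts (KO1 medians of 12351, and 18911 for the 44 listed ones). These counts are not divided by length, and how far the difference was one of length was not tested. Of the 14 members other than the paralogs with means below 10000 in the CBFB and KO1 tables, 12 were absent. Of the 20 members with the highest KO1 means, 3 were absent. Outside the family, absent genes had a lower median than listed ones in the CBFB table (667 and 828) but a higher one in the KO1 table (834 and 678). Shares of all genes at the same coding lengths or means were not counted. The most abundant absent member was RPL13A, a large-subunit protein also known for silencing translation after interferon, with means of 28754 in the CBFB table and 33694 in the KO1 table.

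Of the 50 large-subunit genes whose CBFB and KO1 means reached 100, 21 were absent. These were RPL13, RPL13A, RPL18, RPL21, RPL24, RPL27, RPL27A, RPL28, RPL32, RPL34, RPL35, RPL35A, RPL36, RPL36A, RPL36AL, RPL37, RPL37A, RPL38, RPL39, RPLP1 and RPLP2. RPLP1 and RPLP2 form the acidic stalk with RPLP0 and recruit elongation factors. RPLP1 had means of 17868 and 20303 in the CBFB and KO1 tables and RPLP2 had 8566 and 10596, while RPLP0 was listed in all 3 tables with 37305, 39956 and 46354. The stalk genes were therefore split between listed and absent.

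Of the 31 small-subunit genes, 16 were absent, among them RPS9, RPS10, RPS12, RPS14, RPS15, RPS15A, RPS16, RPS19, RPS20, RPS21, RPS26, RPS27, RPS27A, RPS28 and RPS29. RPS19, the gene most often mutated in Diamond-Blackfan anaemia, had means of 11606 in the CBFB table and 15262 in the KO1 table. RPS14, the gene tied to the anaemia of 5q- syndrome, had 18977 and 22678. RPS27A, which encodes a ubiquitin fused to a ribosomal protein, had 18167 and 21099. Listed small-subunit genes included RPS6, the substrate of S6 kinase, with 26393, 28985 and 33233 in the CBFB, KO1 and KO2 tables, and RPSA, also known as the laminin receptor, with 28264, 31028 and 38895.

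Ribosomal proteins that the naming rule leaves out were also split between listed and absent. FAU, whose product is a fusion of a ubiquitin-like protein with a ribosomal protein, was absent from the KO2 table with means of 4916 and 6105 in the CBFB and KO1 tables. RACK1, listed under its older symbol GNB2L1 and bound to the small subunit, was listed in all 3 tables with 38792, 40924 and 45477. Of 77 mitochondrial ribosomal protein genes, all of which reached a mean of 100 in both other tables, 13 were absent from the KO2 table. Beside this, 3.21% of all genes that reached this mean were absent. The 77 had a median length of 1147 bases, and 5.04% of genes outside the family between 1000 and 1500 bases were absent. Single genes were not matched by length. None of 14 other genes known for TOP mRNAs (median length 1607 bases) and none of 22 ribosome biogenesis genes (2211.5 bases) were absent. Among genes outside the family, 2.26% were absent between 1500 and 2000 bases and 0.79% between 2000 and 3000 bases. Lists this small could therefore hold no absent gene without differing from other genes.

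Together the listed members made up 6.15% (CBFB), 7.62% (KO1) and 6.45% (KO2) of the summed means of their tables. The KO2 value rests on 46 genes and the others on 82. With the 45 members listed in all 3 tables, the shares were 4.10%, 4.97% and 6.45%, so the order of the tables depended on which members were counted. The 37 absent genes alone contributed 2.05% of the CBFB table and 2.65% of the KO1 table.

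**Figure D2:**
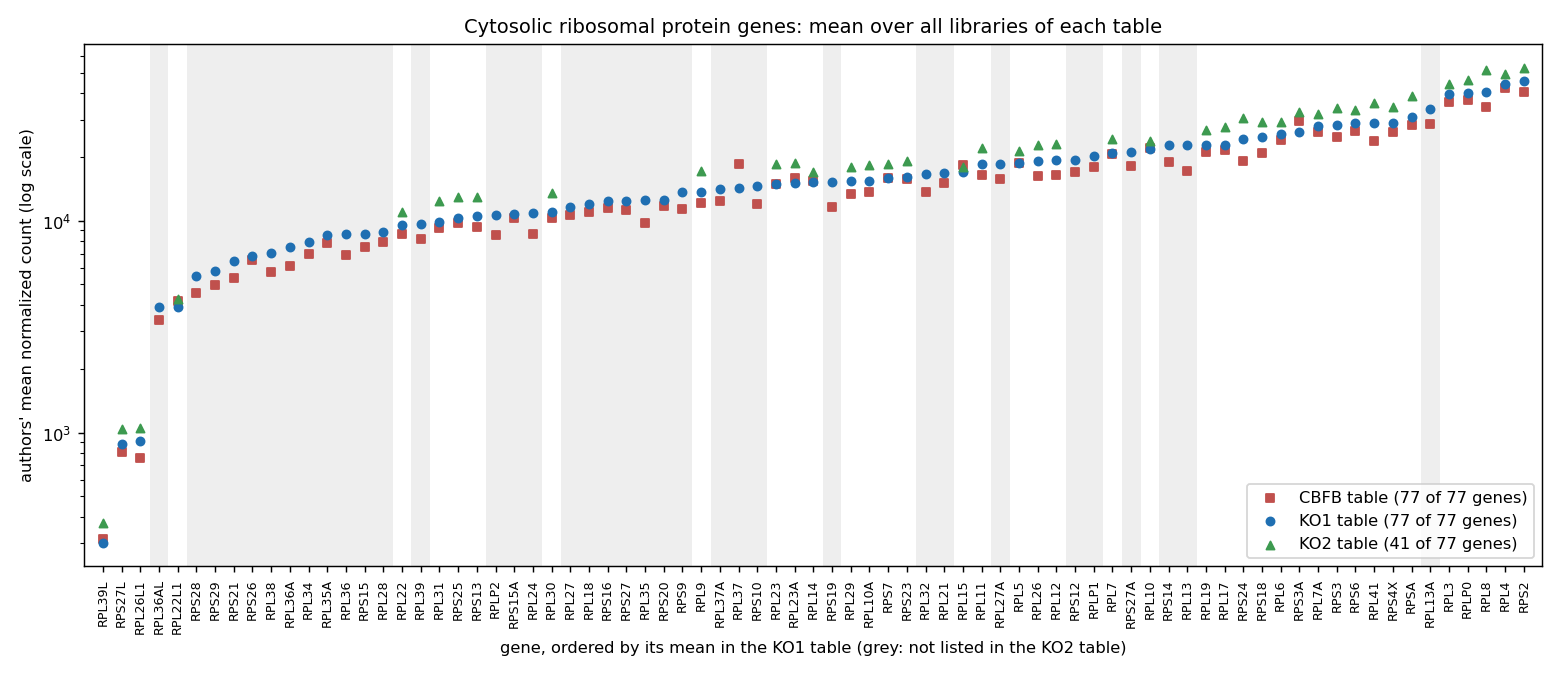
The authors' mean normalized count (y axis, log scale) of 77 of the 81 members whose mean reached 100, ordered along the x axis by the KO1 mean; squares are the CBFB table, circles the KO1 table and triangles the KO2 table, and grey columns mark genes that the KO2 table lacks. The means run from 302 (RPL39L) to 45839 (RPS2) in the KO1 table, and the grey columns crowd the lower and middle part of the order.

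RPS2, RPL4, RPL8, RPL3 and RPLP0 had the 5 highest means in each table. RPS2, a small-subunit protein near the mRNA entry site, had means of 40569, 45839 and 52770 (CBFB, KO1 and KO2 tables). RPL4 had 42508, 44084 and 49079, RPL8 had 34262, 40691 and 51504, and RPL3 had 36504, 39528 and 44078. Across the members, the order of the means was similar between tables (Spearman's rho across genes 0.98 for the 81 members of the CBFB and KO1 tables), which is a description over genes that share libraries and sequence composition.

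Per length, the family was far above the typical gene. Levels per length are the mean divided by the median annotated transcript length and scaled to 1000000 over the table. The median over the 81 members was 1882 in the KO1 table, beside 23.2 over all genes whose mean reached 100, and 52 of the 100 genes with the highest levels there were members. Among the 44 members whose mean reached 100 in all 3 tables, RPL41 was the highest, with a level of 4479 in the KO1 table, followed by RPS2 (4329), RPS18 (3738), RPL8 (3705) and RPS24 (3591). The lowest of these 44 were RPL39L (36.3), RPS27L (98.5), RPL26L1 (116), RPL22L1 (262) and RPL22 (600), so 4 of the 5 were paralogs.

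Although the proteins are needed in equal numbers, the levels were not equal. The 76 members other than the paralogs had KO1 levels from 373 to 4479. Their ratio of the 90th to the 10th percentile was 3.11 in the KO1 table and 3.40 in the CBFB table. Among the 40 such members of the KO2 table it was 2.66. With the low paralogs included, the ratio was 5.03 (KO1) and 4.94 (CBFB) over 81 members and 4.92 over the 44 of the KO2 table. The spread depended on the annotated length used. With coding length the KO1 ratio was 2.88 over the 81 members and 2.72 over the 76. With the longest annotated transcript it was 7.87 and 6.82. RPL41 moved to 17530 with coding length because only 75 bases code for its protein. RPS28, lowest of the 76 with 373, has an annotated median length of 1326 bases for a coding length of 207 bases.

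Reads of these genes are also hard to assign. RefSeq names 1955 pseudogenes after 76 of the 83 members, with a median of 14 per member and 137 for RPL21. How the authors' counting treated reads that match several places was not given in the sources used here. Readthrough genes that overlap members were listed with means close to the member's own: RPL17-C18orf32 had 20965, 22277 and 27059 in the CBFB, KO1 and KO2 tables beside 21578, 22891 and 27676 for RPL17. RPS10-NUDT3 had 12374 and 14952 in the CBFB and KO1 tables beside 11933 and 14578 for RPS10, and RPL36A-HNRNPH2 had 7396 and 8778 beside 6106 and 7477 for RPL36A. Both RPS10-NUDT3 and RPL36A-HNRNPH2, like RPS10 and RPL36A, were absent from the KO2 table.

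The paralogs differed widely from each other. RPL22L1, the paralog that can stand in for RPL22 in the large subunit, made up 33.9% of the summed per-length level of the pair from the CBFB means, 30.4% from the KO1 means and 29.4% from the KO2 means. Its means were 4175, 3911 and 4291, those of RPL22 8656, 9532 and 10949. RPL36AL made up 33.9% of its pair with RPL36A in the CBFB table and 32.6% in the KO1 table, and neither gene was in the KO2 table. These were the paralogs nearest to their partners.

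The other expressed paralogs were a small part of their pairs. RPL26L1 made up 4.23%, 4.37% and 4.20% of its pair with RPL26 in the CBFB, KO1 and KO2 tables, with means of 756, 915 and 1047 against 16260, 19067 and 22744. RPS27L, known as a target of p53, made up 3.10% and 3.06% of its pair with RPS27 in the CBFB and KO1 tables. This share depended on the length used, being 0.400% and 0.396% with the longest annotated transcripts and 8.16% and 8.08% with coding length. RPL39L, known from male germ cells, made up 2.01% and 1.65% of its pair with RPL39 (3.68% and 3.04% with coding length), with means of 315 and 302. In the KO2 table RPS27L and RPL39L were listed, with means of 1039 and 373, while the far more abundant RPS27 and RPL39 were not.

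RPL3L, a paralog of striated muscle, and RPL10L were at the limit of detection. RPL3L had means of 0.46, 0.74 and 0.45 (CBFB, KO1 and KO2 tables), which amount to 2.78, 5.95 and 3.63 normalized reads over all libraries of a table. RPL10L was listed in the KO2 table alone, with a mean of 0.11 or 0.89 reads in all. No ratio is given for these 2 genes, and a difference between tables was not detectable at this depth.

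**Figure D3:**
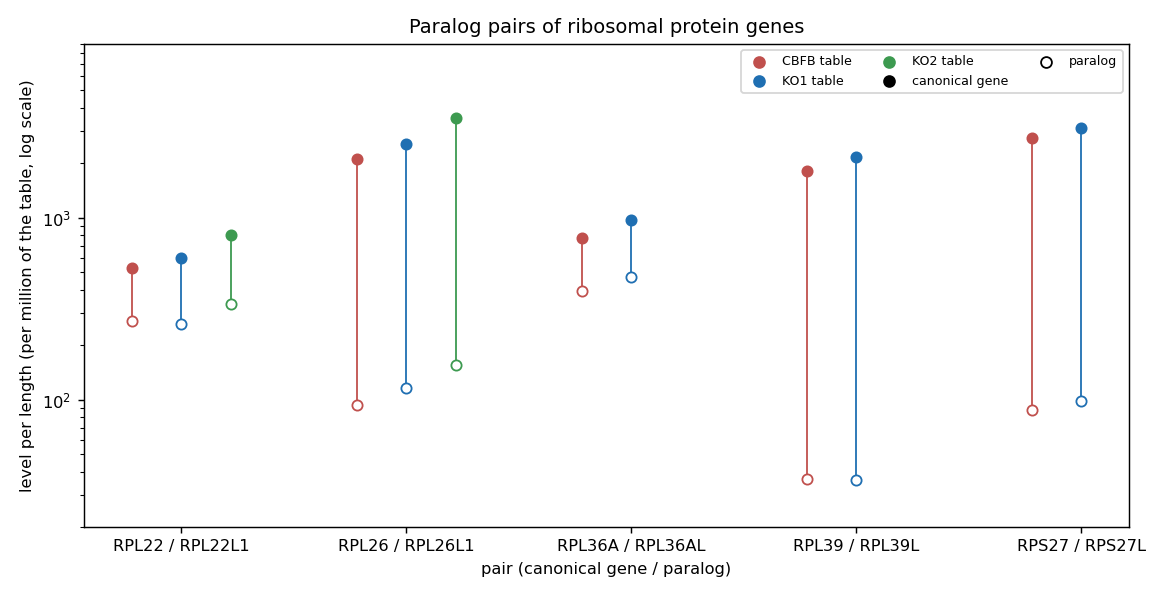
Level per length (y axis, log scale, scaled to 1000000 over the table) of 5 canonical genes (filled circles) and their paralogs (open circles) in the CBFB, KO1 and KO2 tables (red, blue, green), where both genes of a pair are listed. The KO2 total lacks the absent members, which raises its levels, so heights are to be compared within a table. The circles of RPL22 and RPL36A lie close to those of their paralogs, whereas RPL39L lies at 36.8 and 36.3 beneath RPL39 at 1797 and 2166.

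Between tables, the means of the members differed together, on the same side as those of other short transcripts. Ratios are log2 ratios of the authors' means for genes whose means both reach 100, minus the median over all such genes. In KO2 over KO1, which share 4 WT libraries, all 44 members lay above 0, with a median of 0.36 and a range of 0.17 to 0.46. The shared libraries make these means more alike, so sizes in this pair are not comparable with those in the other pairs. At least 25% higher were 27 of the 44 members (61.4%), against 5.36% of all 10174 genes, and none was at least 20% lower, the same factor downwards, against 0.423%. Other genes below 600 bases had a median of 0.21 and those of 3000 bases or more of -0.07, so the short genes as a class lay on the same side.

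In CBFB over KO1 the members lay on the other side. The median of 81 members was -0.39, with a range of -0.63 to 0.15, and 80 of the 81 were below 0. At least 20% lower were 62 members (76.5%), against 16.5% of all 10531 genes, and none was at least 25% higher, against 20.0%. Other genes below 600 bases had a median of -0.32, and those of 3000 bases or more 0.19. The 37 members absent from the KO2 table had a median of -0.45 here and the 44 listed ones -0.35.

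In CBFB over KO2, 43 of 44 members (97.7%) were at least 20% lower, against 25.4% of all 10064 genes, and none was at least 25% higher, against 25.0%. The members' median was -0.72 and their range -1.01 to -0.31. Large- and small-subunit genes had medians of -0.68 and -0.75 in this pair, 0.33 and 0.38 in KO2 over KO1, and both -0.39 in CBFB over KO1. The 3 pairs use the same 3 tables and are not independent of each other.

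With the trend of all genes on transcript length removed, the members' medians shrank to 0.16 in KO2 over KO1, -0.11 in CBFB over KO1 and -0.31 in CBFB over KO2. Then no member was 25% higher in KO2 over KO1, against 1.79% of all genes, and 2 of 81 were 20% lower in CBFB over KO1, against 12.5%. In CBFB over KO2, 20 of the 44 members lay at least 20% lower, against 19.4% of all genes. The signs were kept by most members: 43 of 44 stayed above 0 in KO2 over KO1, 68 of 81 below 0 in CBFB over KO1 and 43 of 44 below 0 in CBFB over KO2. The part of experiment, library preparation, clone and genotype in what remained was not tested.

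**Figure D4:**
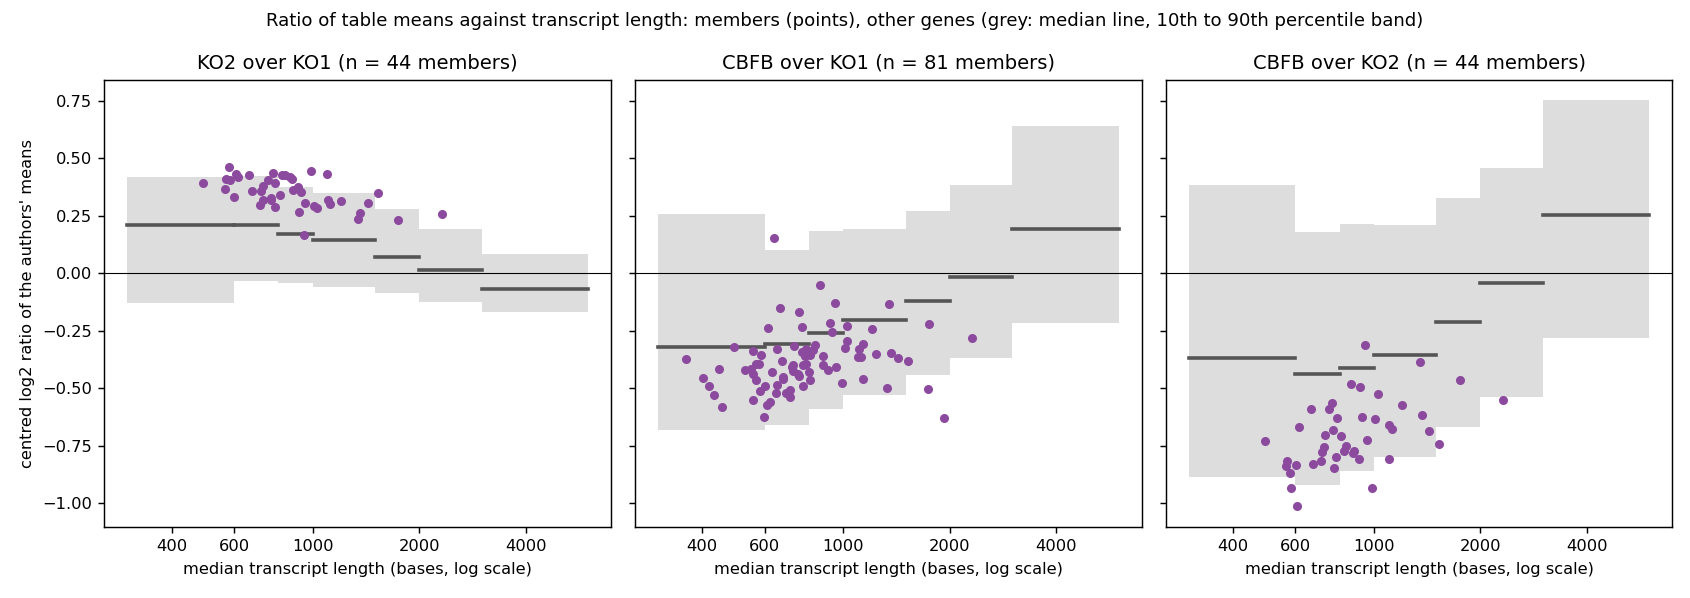
Centred log2 ratio of the authors' means (y axis) against median transcript length (x axis, bases, log scale) for 3 pairs of tables; purple points are ribosomal protein genes, grey lines the median and grey bands the 10th to 90th percentile of other genes by length class (the outer classes are open-ended and cut off in the drawing). All 44 points lie above 0 in KO2 over KO1, 80 of 81 lie below 0 in CBFB over KO1, and the grey medians slope the same way as the points.

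Single members stood at the ends of these ranges. RPL8 and RPL9 were among the 3 members with the highest ratios in KO2 over KO1 (0.44 and 0.43), and RPL15, RPL10 and RPL22L1 had the lowest (0.17, 0.23 and 0.24). RPL15, RPL22L1 and RPL10 were also nearest to 0 in CBFB over KO2 (-0.31, -0.39 and -0.46), and RPS24, RPL8 and RPL41 farthest from it (-1.01, -0.93 and -0.93). RPL15, a large-subunit protein whose gene is mutated in some cases of Diamond-Blackfan anaemia, had means of 18284, 17076 and 17861 (CBFB, KO1 and KO2 tables).

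RPL37 was the exception in CBFB over KO1. Its mean was 18610 in the CBFB table and 14268 in the KO1 table, a centred ratio of 0.15 and the only positive value of the 81. RPS3A and RPL15 came next, with -0.05 and -0.13. At the other end, RPL13 (-0.63), RPS19 (-0.62) and RPL35 (-0.58) were lowest, with RPL13 at 17210 and 22701 in the CBFB and KO1 tables. With the length trend removed, RPL37 stood at 0.48 and RPL13 at -0.54, RPL13 having a long annotated transcript of 1920 bases.

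Genes with related roles differed less. The 14 other TOP mRNA genes, among them the elongation factors EEF1A1 and EEF2, had medians of 0.09 in KO2 over KO1, -0.18 in CBFB over KO1 and -0.30 in CBFB over KO2. Their transcripts are longer (median 1607 bases). EEF1B2, the shortest with 880 bases, had ratios of 0.29, -0.38 and -0.69, inside the range of the members, whereas TPT1, with 1055 bases, had 0.05 in KO2 over KO1, below that range, and -0.37 and -0.44 in the other pairs. The 22 ribosome biogenesis genes had medians of 0.01, -0.20 and -0.24, while NOP10 and NHP2, short genes of the box H/ACA particle that guides RNA pseudouridylation, had 0.46 and 0.45 in KO2 over KO1. The 64 listed mitochondrial ribosomal protein genes had a median of 0.22 in KO2 over KO1 and the 77 in CBFB over KO1 one of -0.27. In CBFB over KO2 the median of 64 was -0.47, and 45 of them were at least 20% lower.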

How the data were processed

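MCF10A mRNA libraries (TruSeq kit) were sequenced by the authors, whose processing notes name Trimmomatic, STAR, hg19 and DESeq2. Their published methods instead describe removal of rRNA from total RNA, followed by size selection, so how mRNA was enriched is not certain. The effect of these steps on short transcripts was not tested. The read counter and annotation are not given in the sources used here. The 3 tables analysed here, which the authors deposited, hold an Entrez identifier, a symbol, a mean normalized count (unit: signal) pooled over knockout and WT libraries, and their own fold changes, standard errors, statistics and p-values, which were not used. The matrices that the labels also name were not analysed here, so depth per library is unknown and no count test was run. Members and gene lists were chosen with earlier results of these data known. Tables were joined by Entrez identifier (Python 3.11.15, pandas 2.3.3). Transcript lengths came from GENCODE 29, found for 99.0% of genes whose mean reached 100. Ratios used a minimum mean of 100 and were centred on the median of all genes; the length trend was fitted by lowess (statsmodels 0.14.6, span 0.3), tested on simulated data. Named were members absent from a table or with a mean under 100, paralog pairs, the 5 highest and lowest per length in the KO1 table, and the 3 highest and lowest ratios per pair. Other lengths, minima, scalings and run definitions were tried. Start sequences came from RefSeq GRCh38.p14. A few genes are counted in the totals but not reported here by name.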

Additional observations from a re-analysis of the deposited data

How the results depend on the processing

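No paired analysis was possible because the columns analysed are means over libraries, the matrices that the labels also name were not analysed here, and for the same reason no library could be left out. Counting by current RefSeq symbols gave the same 83 members. The summed share was 4.10% (CBFB) and 4.97% (KO1) for members listed in all 3 tables, 6.36% and 7.96% over a total of genes listed in all 3 tables plus the members, 4.33% and 5.34% with members and total both limited that way (added after seeing the data), and 13.6%, 15.6% and 12.8% (KO2) per transcript length. Scaled to table totals, the median log2 ratios were 0.38 (KO2 over KO1), -0.33 (CBFB over KO1) and -0.67 (CBFB over KO2), and with a minimum mean of 1000 they were 0.33, -0.34 and -0.64. With the length trend removed they were 0.16, -0.11 and -0.31, and 0, 2 and 20 members passed the same factor. With length and GC trends removed (added after seeing the data) they were 0.17, -0.087 and -0.28, with 0, 2 and 19 members. At a factor of 1.5, 0 members passed in KO2 over KO1 (0.147% of all genes), 2 in CBFB over KO1 (4.22%) and 35 in CBFB over KO2 (11.4%). With paralogs included, the 90th over 10th percentile of the level per length was 8.35, 7.87 and 11.1 (CBFB, KO1, KO2) with the longest transcript. With coding length it was 2.89, 2.88 and 2.72. Of 12 paralog shares, 9 were higher and 3 lower with coding length, and 5 higher and 7 lower with the longest transcript. A run was found in 76.1% of members and 9.51% of all genes with at least 6 pyrimidines, in 76.1% and 13.03% within 2 bases and in 88.1% and 38.4% within 10 bases. The cause of these shifts was not tested.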
